A study of Homo sapiens with 24 samples.

Results

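The genes described here are 39 genes of double-strand break signalling and repair, listed by name and read from the array probes that the platform annotation gives them. Of the 39 genes, 35 had a probe in the annotation used here and 28 had a probe detected well enough to be tested, out of 9533 genes measured in all. They were followed in Ramos, a human Burkitt lymphoma line of B cell origin, and in 5 lines selected from it step by step in doxorubicin. Dox100 was raised from Ramos, and Dox250, Dox500, Dox750 and Dox1000 were each raised from the line with the next lower number. The lines were kept and harvested in 100, 250, 500, 750 and 1000 nM doxorubicin, while Ramos grew in the same medium without drug. For each line 1 culture had been divided into 4, and the 24 cultures were hybridised to 1 Illumina bead array each. The p-values below thus measure the spread between divided cultures, which may be technical. Each line is a single line with no independent selection beside it, and the presence of drug cannot be told apart from the line.

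A double-strand break is bound by the complex of MRE11, RAD50 and NBN, which activates the kinase ATM. ATM phosphorylates the histone H2AX beside the break, MDC1 binds the marked histone, and the ubiquitin ligases RNF8 and RNF168 then modify the chromatin so that TP53BP1 and the BRCA1 complexes can gather there. TP53BP1 with RIF1 holds back the trimming of the ends and favours end joining, in which XRCC5 and XRCC6 (the Ku proteins), PRKDC, XRCC4, LIG4 and NHEJ1 ligate the ends directly. BRCA1 with BARD1, RBBP8 and EXO1 promotes trimming, after which PALB2, BRCA2, XRCC2, XRCC3, RAD51C, RAD51D and the RAD54 proteins take part in homologous recombination. POLQ joins trimmed ends through short stretches of homology. B cells depend on end joining when they rearrange and switch their antibody genes, and doxorubicin makes double-strand breaks by trapping topoisomerase II on DNA.

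The values are log2 normalized signals, corrected for background and comparable between lines for 1 probe but not between genes. Differences are log2 fold changes from limma, and a gene passed where the Benjamini-Hochberg adjusted p was under 0.05 over all 15765 probes tested. The median raw signal of an array lay between 121.1 and 163.4, and each array detected between 14158 and 15564 of 47323 probes. Precision is limited by the number of arrays. Of 6 B cell markers 4 were measured (CD79A, CD79B, MS4A1 and CD22) and PAX5 was detected on 0 arrays. The summed B cell marker signal ran from 24525 to 26415 in Dox1000, against 18947 to 21499 in Ramos. The 4 markers did not move together, since 3 passed as higher and 1 as lower in Dox1000 (log2 fold changes from -0.61 to 0.80). Of markers of other cells, 1 of 5 for T cells (CD3E), 2 of 5 for myeloid cells (CD68 and FCGR3A) and 1 of 6 for epithelial and stromal cells (DCN) were measured. Their sums were 19.9 to 35.4, 248 to 310 and 135 to 173 in Dox1000, against 6.73 to 10.3, 348 to 404 and 7.61 to 8.10 in Ramos. CD3E was detected on at most 7 of 24 arrays, DCN on 12 and FCGR3A on 14, against 24 for CD68. The T cell and stromal sums are therefore not read as differences between lines. CD3D, CD5, CSF1R, EPCAM and COL1A1 were detected on 0 arrays. In RNA from whole cultures, fewer cells that express a gene and less of its RNA per cell cannot be told apart.

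Against Ramos the share of members that passed was somewhat above the share over all genes in each line, and more members were lower than higher. In Dox100, 14 of 28 members passed, 3 higher and 11 lower, where 46.4% of all measured genes passed (24.1% higher and 22.2% lower). In Dox250, 17 passed, 6 higher and 11 lower, where 49.4% of all genes did (23.9% higher and 25.5% lower). In Dox500, 16 passed, 6 higher and 10 lower, where 48.4% did (25.2% higher and 23.2% lower). The members that passed in either direction made up 50%, 60.7%, 57.1%, 64.3% and 67.9% of the 28 in order of dose. In Dox750, 18 passed, 7 higher and 11 lower, where 52.7% of all genes did (26.8% higher and 25.9% lower). In Dox1000, 19 passed, 4 higher and 15 lower, where 57.3% did (27.6% higher and 29.7% lower). The 5 comparisons share the Ramos arrays, and the difference between members and other genes was not tested.

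The median member differed from Ramos by -0.16, -0.15, -0.14, -0.15 and -0.27 in Dox100, Dox250, Dox500, Dox750 and Dox1000, while the median of all genes lay between -0.02 and 0.01. Changes of at least 1.5-fold were few. In order of dose, 4, 3, 4, 4 and 4 of 28 members passed with such a change, where 19.4%, 21.3%, 19.8%, 23.3% and 25.4% of all genes did. In Dox1000 they were RNF8, which was higher, and XRCC2, H2AX and TP53BP1, which were lower. From Dox250 on, the split between directions depended on the scaling of the arrays. When each array was scaled to its median in place of quantile normalization, the median of all genes moved to -0.13, -0.14, -0.11 and -0.13 in Dox250, Dox500, Dox750 and Dox1000. The members' splits then became 2 higher and 15 lower in Dox250, 3 and 15 in Dox500, 4 and 16 in Dox750, and 2 and 16 in Dox1000. Dox100 moved little, to 3 higher and 10 lower from 3 and 11, with the median of all genes at -0.03. Over all 9533 genes, 1599 were then higher and 3281 lower in Dox250, and 1480 and 3389 in Dox500. In Dox750 the split of all genes was 1808 and 3201, and in Dox1000 it was 1896 and 3577.

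**Figure D1:**
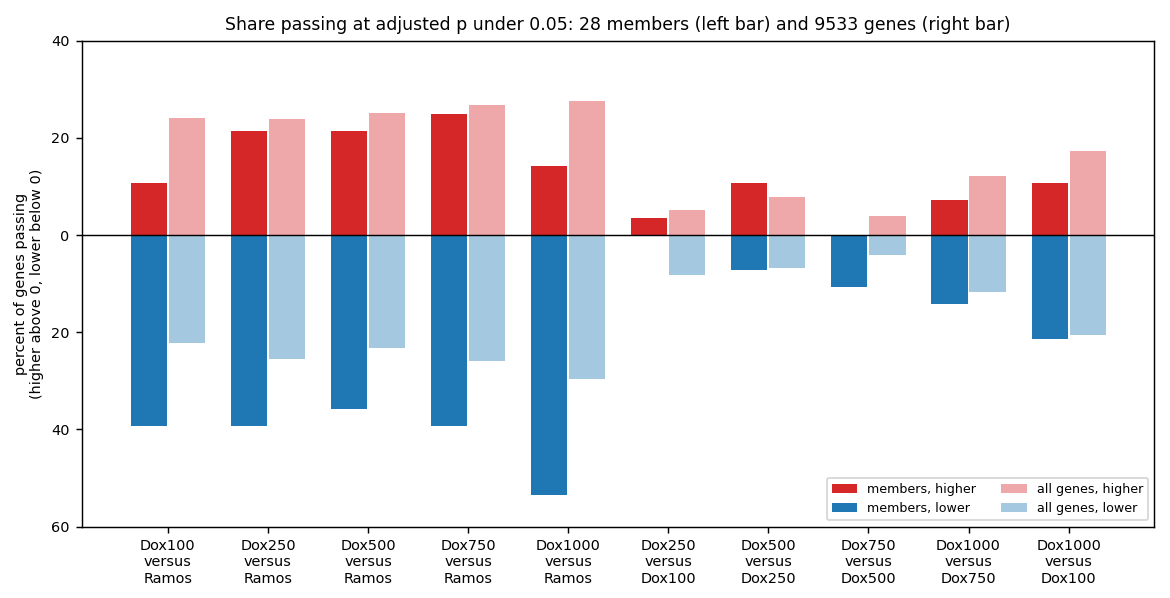
Percent of genes that passed at an adjusted p under 0.05 in each of the 10 comparisons, for the 28 measured members (left bar of each pair) and for all 9533 genes (right bar). Bars above 0 are genes higher in the line named first and bars below 0 are genes lower in it. Against Ramos the members' bars reach farther below 0 than those of all genes in each of the 5 lines, and farther above 0 in none.

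Across the 5 lines the members fell into distinct patterns. H2AX, TP53BP1, XRCC2, RAD54B and POLQ were lower than Ramos in all 5, as were 11.5% of all genes. RNF8 was the single member higher in all 5, as were 13.8% of all genes. CHEK2 alone was higher in some lines and lower in others, which 3.16% of all genes were. MRE11 and BRCA1 passed in none, as did 20.4% of all genes. Of the rest, 13 were lower in 1 to 4 lines and higher in none, as were 27.9% of all genes, and 6 were higher in 1 to 4 lines and lower in none, as were 23.2%. The promoter sequences of 5 of the 6 genes that passed in 1 direction in every line, all but RAD54B, are shown next, since their differences from Ramos are the ones that recur in each line.

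The windows run from 250 bases before to 50 bases after the RefSeq start site on GRCh38.p14, and capitals mark 3 motifs searched on both strands, a core form of the E2F site (TTCCCGC), the CCAAT box (CCAAT) and the cell cycle element CHR (TTTGAA). No motif matches overlapped in them. They are H2AX at chr11:119095416-119095715, TP53BP1 at chr15:43510591-43510890, XRCC2 at chr7:152676092-152676391 and POLQ at chr3:121545939-121546238, all on the minus strand, and RNF8 at chr6:37353733-37354032 on the plus strand.
H2AX: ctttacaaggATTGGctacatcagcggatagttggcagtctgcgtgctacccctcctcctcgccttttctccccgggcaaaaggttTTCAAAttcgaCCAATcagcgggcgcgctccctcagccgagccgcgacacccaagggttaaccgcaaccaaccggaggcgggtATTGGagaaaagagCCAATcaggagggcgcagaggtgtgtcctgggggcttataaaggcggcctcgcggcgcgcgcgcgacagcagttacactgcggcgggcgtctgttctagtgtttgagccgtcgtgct
TP53BP1: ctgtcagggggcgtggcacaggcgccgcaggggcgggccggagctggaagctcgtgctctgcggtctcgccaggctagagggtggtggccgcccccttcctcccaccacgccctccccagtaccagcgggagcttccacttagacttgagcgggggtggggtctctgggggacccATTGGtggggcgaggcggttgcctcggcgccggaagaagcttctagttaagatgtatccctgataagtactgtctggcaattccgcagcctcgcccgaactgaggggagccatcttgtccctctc
XRCC2: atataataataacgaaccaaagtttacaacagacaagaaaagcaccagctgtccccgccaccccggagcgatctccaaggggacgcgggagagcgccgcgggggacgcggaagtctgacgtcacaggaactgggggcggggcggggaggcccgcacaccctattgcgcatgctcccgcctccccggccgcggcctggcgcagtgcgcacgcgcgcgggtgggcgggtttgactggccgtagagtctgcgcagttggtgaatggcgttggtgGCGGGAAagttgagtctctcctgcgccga
POLQ: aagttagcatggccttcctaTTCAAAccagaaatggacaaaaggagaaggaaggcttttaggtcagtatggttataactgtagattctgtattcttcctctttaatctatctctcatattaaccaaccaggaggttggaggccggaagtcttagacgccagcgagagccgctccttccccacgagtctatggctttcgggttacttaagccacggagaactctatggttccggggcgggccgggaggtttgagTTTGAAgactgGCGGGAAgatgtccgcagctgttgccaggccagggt
RNF8: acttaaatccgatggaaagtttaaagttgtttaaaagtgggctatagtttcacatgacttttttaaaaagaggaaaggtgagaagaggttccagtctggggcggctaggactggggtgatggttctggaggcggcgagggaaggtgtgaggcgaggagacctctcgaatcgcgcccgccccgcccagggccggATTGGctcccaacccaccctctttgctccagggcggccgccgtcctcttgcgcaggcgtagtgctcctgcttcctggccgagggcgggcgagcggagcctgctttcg
H2AX carried 4 CCAAT boxes and 1 CHR match, TP53BP1 and RNF8 1 CCAAT box each, XRCC2 1 E2F match, and POLQ 1 E2F and 2 CHR matches. Of 23 measured members with a window in the table, 9 held an E2F match, 16 a CCAAT box and 5 a CHR match (39.1%, 69.6% and 21.7%). Among 7796 measured genes with a window the shares were 13.2%, 44.7% and 14.1%, and among all 35116 windows 6.55%, 34.6% and 15.2%. A match describes letters in a window and no more.

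**Figure D2:**
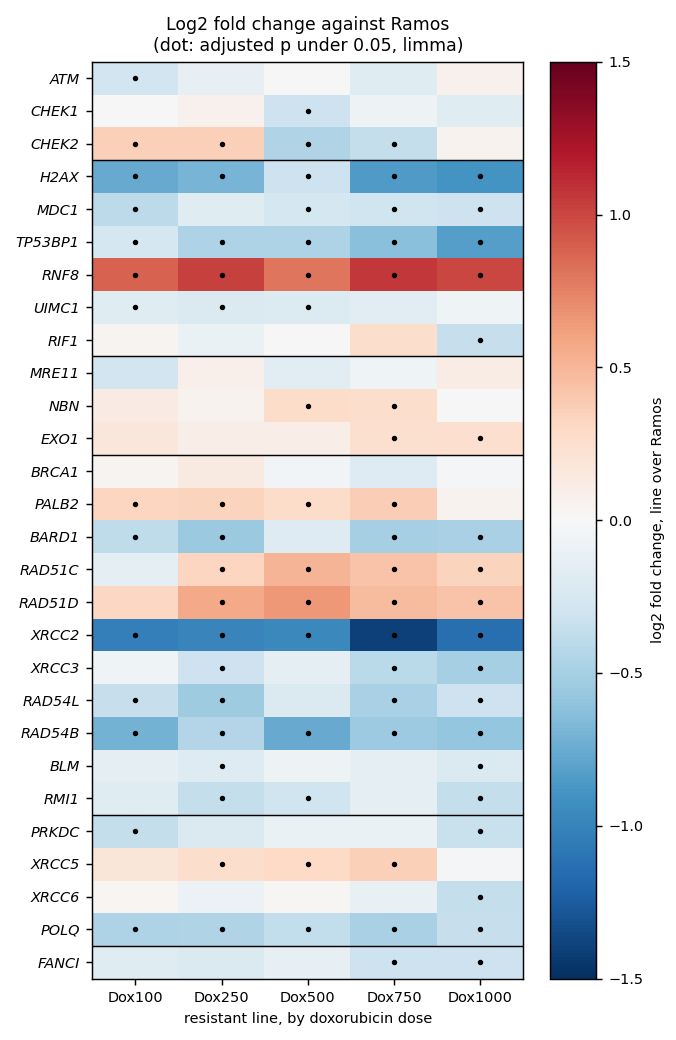
Log2 fold change of each of the 28 measured members (rows, grouped by role and divided by lines) in each resistant line against Ramos (columns, by doxorubicin dose). Red is higher in the resistant line, blue is lower, and a dot marks an adjusted p under 0.05 in limma. XRCC2, H2AX, TP53BP1, RAD54B and POLQ are blue with dots in all 5 columns and RNF8 is red with dots in all 5.

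Of the genes that mark the chromatin beside a break, H2AX and TP53BP1 were lower and RNF8 was higher in every resistant line, and MDC1 was lower in 4 of 5. H2AX, the histone variant that ATM phosphorylates at breaks, read 9.23, 9.59, 9.58 and 9.17 in Ramos, 8.89, 8.63, 8.59 and 8.45 in Dox100, and 8.69, 8.83, 8.53 and 8.72 in Dox250. It read 9.14, 9.04, 9.02 and 9.16 in Dox500, 8.48, 8.75, 8.44 and 8.51 in Dox750, and 8.77, 8.45, 8.46 and 8.32 in Dox1000. All resistant arrays lay below all Ramos arrays, with Dox500 closest to Ramos and apart from the other resistant lines. The log2 fold changes against Ramos were -0.75, -0.70, -0.30, -0.85 and -0.90 in order of dose (SE 0.11, limma adjusted p of 1.2e-05, 2.63e-05, 0.0342, 1.92e-06 and 8.62e-07). The Dox500 difference did not pass without Ramos replicate 2 or 3 or without Dox500 replicate 2 or 3 (adjusted p of 0.0734 to 0.122), whereas the other 4 passed with each array left out. Between neighbouring lines H2AX rose by 0.40 in Dox500 over Dox250 (adjusted p = 0.024) and fell by 0.54 in Dox750 against Dox500 (adjusted p = 0.00533). The first of these did not pass without Dox250 replicate 3 (adjusted p = 0.0867) or Dox500 replicate 4 (adjusted p = 0.0612).

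TP53BP1, which restrains end trimming and favours end joining, was lowest in the last line. It read 9.09, 9.27, 9.12 and 9.29 in Ramos, 9.02, 8.93, 9.01 and 8.77 in Dox100, and 8.48, 9.01, 8.63 and 8.79 in Dox250. The arrays read 8.78, 8.71, 8.59 and 8.86 in Dox500, 8.62, 8.53, 8.64 and 8.5 in Dox750, and 8.32, 8.43, 8.45 and 8.24 in Dox1000. No resistant array reached the lowest Ramos array, and the Dox1000 arrays lay below those of Dox750. TP53BP1 differed from Ramos by -0.26, -0.47, -0.46, -0.62 and -0.83 in order of dose (SE 0.09, limma adjusted p of 0.0304, 0.00031, 0.000403, 9.71e-06 and 1.56e-07). None of the 4 steps between neighbouring lines passed for it, with differences of -0.21, 0.01, -0.16 and -0.21, but Dox1000 was lower than Dox100 by -0.57 (adjusted p = 6.88e-05). The first of these steps did pass without Dox250 replicate 2 (-0.30, adjusted p = 0.033). The Dox100 difference from Ramos did not pass without Ramos replicate 2 or 4 or Dox100 replicate 2 or 4 (adjusted p of 0.0516 to 0.107). RIF1, which acts with TP53BP1 at the ends, was lower in Dox1000 than in each line it was tested against.

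RIF1 read 7.12, 7.01, 7.08 and 7.46 in Ramos, 6.80, 7.42, 7.16 and 7.46 in Dox100, and 7.11, 7.14, 6.90 and 7.12 in Dox250. Its arrays read 6.93, 7.02, 7.35 and 7.35 in Dox500, 7.29, 7.38, 7.35 and 7.71 in Dox750, and 6.88, 6.65, 7.02 and 6.76 in Dox1000. The Dox1000 arrays overlapped with Ramos and not with Dox750. RIF1 in Dox1000 fell by 0.61 against Dox750 (adjusted p = 0.00327), by 0.38 against Dox100 (adjusted p = 0.0379) and by 0.34 against Ramos (SE 0.14, adjusted p = 0.044). The step from Dox750 passed in all fits with an array left out. The Ramos comparison did not pass without Ramos replicate 1, 3 or 4 or Dox1000 replicate 1, 2 or 4 (adjusted p of 0.0509 to 0.168), nor without background correction (-0.17, adjusted p = 0.0521). The comparison with Dox100 did not pass without Dox100 replicate 2, 3 or 4 or Dox1000 replicate 1, 2 or 4 (adjusted p of 0.0544 to 0.129).

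RNF8, the ligase that starts ubiquitin marking at breaks, had the largest rise among the members. It read 7.91, 7.70, 7.74 and 7.59 in Ramos, 8.68, 8.61, 8.68 and 8.51 in Dox100, and 8.60, 8.84, 8.89 and 8.73 in Dox250. The readings were 8.66, 8.49, 8.5 and 8.5 in Dox500, 8.92, 8.97, 8.78 and 8.51 in Dox750, and 8.67, 8.86, 8.86 and 8.57 in Dox1000. Every resistant array lay above every Ramos array, and the resistant lines overlapped with each other. RNF8 was higher than in Ramos by 0.88, 1.03, 0.80, 1.06 and 1.0 in order of dose (SE 0.10, limma adjusted p of at most 5.77e-07). It passed in each of the 5 lines under every alternative run, with the difference in Dox1000 between 0.70 and 1.06, and no comparison among the resistant lines passed for it with all arrays. Without Dox750 replicate 4 RNF8 was higher in Dox750 than in Dox500 by 0.35 (adjusted p = 0.0329).

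MDC1, the adaptor that binds phosphorylated H2AX, read 10.68, 10.66, 10.72 and 10.80 in Ramos, 10.24, 10.16, 10.49 and 10.40 in Dox100, and 10.39, 10.71, 10.52 and 10.49 in Dox250. It read 10.52, 10.38, 10.38 and 10.52 in Dox500, 10.36, 10.42, 10.47 and 10.44 in Dox750, and 10.29, 10.48, 10.59 and 10.25 in Dox1000. Dox250 was the line that overlapped with Ramos, through its replicate 2. MDC1 differed from Ramos by -0.39, -0.19, -0.27, -0.29 and -0.31 in order of dose (SE 0.09), and Dox250 did not pass (adjusted p = 0.0839) while the other lines did (adjusted p of 0.00076 to 0.0154). MDC1 in Dox250 did pass without Dox250 replicate 2 (-0.25, adjusted p = 0.0286) and with median scaling (-0.30, adjusted p = 0.0124). UIMC1, a subunit of a BRCA1 complex that binds ubiquitin chains, was lower in Dox100, Dox250 and Dox500 by -0.18, -0.22 and -0.21 (adjusted p of 0.0352, 0.0125 and 0.0189). It differed by -0.16 and -0.06 in Dox750 and Dox1000, which did not pass, though Dox750 did with median scaling (-0.26, adjusted p = 0.0192). Each of its 3 passing differences ended without Ramos replicate 1 (adjusted p of 0.125, 0.0533 and 0.0743). The Dox100 and Dox500 differences of UIMC1 also did not pass without Ramos replicate 4 (adjusted p of 0.101 and 0.0606). In Dox100 it also did not pass without Dox100 replicate 2, 3 or 4 (adjusted p of 0.0515 to 0.0853). RNF168 was detected on 1 array and was not tested.

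Of the signalling kinases, CHEK2 stood out by turning direction along the series. CHEK2, the checkpoint kinase that ATM activates, read 8.25, 8.57, 8.62 and 8.64 in Ramos, 8.99, 8.74, 8.80 and 8.99 in Dox100, and 8.84, 8.86, 9.07 and 8.74 in Dox250. It read 8.18, 7.98, 8.01 and 8.11 in Dox500, 8.12, 8.14, 8.15 and 8.26 in Dox750, and 8.66, 8.44, 8.68 and 8.53 in Dox1000. The arrays of Dox100 and Dox250 lay above all Ramos arrays, those of Dox500 lay below them, and Dox1000 overlapped with Ramos. Against Ramos CHEK2 was 0.36 higher in Dox100 and in Dox250 and lower by -0.45 in Dox500 and -0.35 in Dox750 (SE 0.09, limma adjusted p of 0.00304, 0.00312, 0.000402 and 0.00316). In Dox1000 it differed by 0.06 (adjusted p = 0.625). The change between lines was direct as well, since CHEK2 fell by 0.81 in Dox500 against Dox250 (adjusted p = 2.74e-06) and rose by 0.41 in Dox1000 over Dox750 (adjusted p = 0.00289), both with each array left out in turn.

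A further kept probe of CHEK2 differed from Ramos by -0.04, 0.28, -0.74, -0.54 and -0.15 in order of dose (SE 0.16). That probe passed in Dox500 and Dox750 (adjusted p of 0.00051 and 0.0065) and not in Dox100 or Dox250, and its sign was the opposite one in Dox100 and Dox1000. With the mean of the kept probes CHEK2 in Dox100 was at 0.16 (adjusted p = 0.242), and with median scaling it was at 0.21 in Dox250 (adjusted p = 0.0906). CHEK2 was also lower in Dox1000 than in Dox100 by -0.30 (adjusted p = 0.0144), which did not pass without Dox100 replicate 1 (adjusted p = 0.051) or Dox1000 replicate 2 (adjusted p = 0.0548). ATM, the kinase at the head of the response, was lower in Dox100 by -0.28 (adjusted p = 0.0124, and 0.0604 without Dox100 replicate 3) and passed in no other line against Ramos with all arrays and its brightest probe. In Dox750 ATM passed without Ramos replicate 1 (-0.23, adjusted p = 0.0423), with median scaling (-0.29, adjusted p = 0.0224) and with the mean of the kept probes (-0.26, adjusted p = 0.0174). It was 0.35 higher in Dox1000 than in Dox100 (adjusted p = 0.0036), or 0.23 with median scaling (adjusted p = 0.091). CHEK1, the checkpoint kinase downstream of ATR, was lower in Dox500 by -0.31 (adjusted p = 0.0031) and fell by 0.37 there against Dox250 (adjusted p = 0.0034), and passed in no other comparison as processed here. In Dox1000 CHEK1 differed from Ramos by -0.18 (adjusted p = 0.0631), and it passed with median scaling (-0.31, adjusted p = 0.00667), without background correction (-0.16, adjusted p = 0.0451), and without Ramos replicate 1 (-0.22, adjusted p = 0.0414) or Dox1000 replicate 1 (-0.22, adjusted p = 0.0334). Dox1000 against Dox100 also passed for CHEK1 with median scaling (-0.31, adjusted p = 0.0111). ATR was detected on 0 arrays and was not tested.

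On their brightest probes, the genes of end trimming moved little. MRE11, the nuclease of the complex that first binds breaks, passed in none of the 5 comparisons with Ramos, at -0.29, 0.08, -0.16, -0.07 and 0.11 in order of dose, but with median scaling it was lower in Dox500 (-0.37, adjusted p = 0.0316). NBN, which links that nuclease to ATM, was higher in Dox500 by 0.28 and in Dox750 by 0.26 (adjusted p of 0.0256 and 0.0327). Neither NBN difference passed without Ramos replicate 4 (adjusted p of 0.065 and 0.0795) or with median scaling (0.12 and 0.14). NBN in Dox500 also did not pass without Dox500 replicate 2 or 3 (adjusted p of 0.0734 and 0.0689). In Dox750 it also did not pass without Ramos replicate 2 or 3 or Dox750 replicate 1, 2 or 4 (adjusted p of 0.0523 to 0.0852). EXO1, an exonuclease that extends the trimming, was higher in Dox750 by 0.24 and in Dox1000 by 0.26 (adjusted p of 0.00806 and 0.00419). With median scaling the EXO1 differences were 0.13 and 0.12 and did not pass (adjusted p of 0.24 and 0.254). The other kept probe of EXO1, detected on all 24 arrays, had the same sign in all lines and lay farther from Ramos. Its mean was 6.62 in Ramos and 6.84, 7.09, 6.85, 7.09 and 6.90 in the resistant lines in order of dose. RAD50 was detected on 0 arrays, and RBBP8 had no probe in the annotation used here.

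Among the 11 measured genes of homologous recombination, XRCC2 had the largest fall of any member, RAD51D was higher in 4 lines, and RAD51C was higher in 4 lines on 1 of its 3 kept probes. XRCC2, which helps build the protein filament on single strands that searches for the matching DNA, read 10.93, 11.10, 11.18 and 11.32 in Ramos, 9.92, 9.89, 10.29 and 10.29 in Dox100, and 10.05, 10.04, 10.28 and 10.20 in Dox250. It read 10.19, 10.06, 10.19 and 10.21 in Dox500, 9.56, 9.49, 9.92 and 9.93 in Dox750, and 10.02, 9.95, 10.10 and 9.94 in Dox1000. Every resistant array lay below every Ramos array. XRCC2 was lower by -1.03, -0.99, -0.97, -1.40 and -1.13 in order of dose (SE 0.11, limma adjusted p of at most 2.65e-07), and it passed in each line under every alternative run. Its other kept probe was detected on 1, 2, 1, 0 and 1 arrays of the resistant lines in order of dose, against 4 in Ramos, so it was kept through Ramos alone and is not read. XRCC2 fell by 0.44 in Dox750 against Dox500 (adjusted p = 0.0198), which did not pass without Dox500 replicate 4 or Dox750 replicate 1 or 2 (adjusted p of 0.0558 to 0.0751).

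XRCC3, a relative of XRCC2 that partners with RAD51C, was lower in 3 lines. It read 9.78, 9.69, 9.50 and 9.55 in Ramos, 9.61, 9.38, 9.64 and 9.62 in Dox100, and 9.36, 9.35, 9.20 and 9.35 in Dox250. The arrays read 9.33, 9.53, 9.57 and 9.48 in Dox500, 9.34, 9.32, 9.22 and 9.01 in Dox750, and 9.20, 9.35, 9.02 and 8.95 in Dox1000. Dox250, Dox750 and Dox1000 lay below all Ramos arrays, and Dox100 and Dox500 overlapped with them. XRCC3 differed from Ramos by -0.06, -0.31, -0.15, -0.41 and -0.50 in order of dose (SE 0.10, adjusted p of 0.627, 0.0101, 0.216, 0.00121 and 0.000157), and Dox1000 was lower than Dox100 by -0.43 (adjusted p = 0.00132).

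RAD51C, which forms complexes with XRCC3 and with RAD51D and XRCC2, was higher in 4 lines on its brightest probe. It read 10.18, 10.28, 10.31 and 10.16 in Ramos, 9.96, 10.20, 9.98 and 10.26 in Dox100, and 10.66, 10.40, 10.65 and 10.52 in Dox250. Later lines read 10.93, 10.64, 10.70 and 10.69 in Dox500, 10.80, 10.60, 10.67 and 10.57 in Dox750, and 10.48, 10.42, 10.56 and 10.80 in Dox1000. From Dox250 on, every array lay above the Ramos and Dox100 arrays, which overlapped with each other. RAD51C differed from Ramos by -0.14, 0.32, 0.51, 0.43 and 0.33 in order of dose (SE 0.09), passing from Dox250 on (adjusted p of 0.000128 to 0.00692), and rose by 0.46 in Dox250 over Dox100 (adjusted p = 0.00217). Its other kept probes did not show the rise over Ramos. They differed by -0.58, 0.09, -0.26, -0.23 and -0.13, and by -0.46, 0.17, -0.06, 0.07 and 0.09, passing as lower in Dox100 and in no other line. From Dox100 to Dox250 the means of these probes did rise, from 8.858 to 9.525 and from 9.189 to 9.811. With the mean of the kept probes RAD51C was at 0.19, 0.06, 0.09 and 0.09 in Dox250, Dox500, Dox750 and Dox1000 and passed in none of them. With median scaling RAD51C did not pass in Dox250 or Dox1000 (0.21 and 0.19, adjusted p of 0.132 and 0.153).

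RAD51D, which pairs with XRCC2, rose in 4 lines on its brightest probe and in 3 of them on its other kept probe. It read 6.54, 6.82, 6.52 and 6.63 in Ramos, 7.23, 6.69, 7.30 and 6.54 in Dox100, and 7.10, 7.15, 7.26 and 7.26 in Dox250. The readings were 7.16, 7.37, 7.11 and 7.48 in Dox500, 7.16, 7.05, 7.17 and 7.03 in Dox750, and 6.98, 7.13, 7.13 and 6.95 in Dox1000. In Dox100 2 arrays lay among Ramos and 2 above it, and from Dox250 on all arrays lay above Ramos. RAD51D differed by 0.31, 0.57, 0.65, 0.47 and 0.42 in order of dose (SE 0.13, adjusted p of 0.0559, 0.000985, 0.000255, 0.00403 and 0.0085). Its other kept probe differed by 0.26, 0.46, 0.59, 0.46 and 0.20 and passed in Dox250, Dox500 and Dox750. The Dox100 difference of RAD51D passed without Ramos replicate 2 or Dox100 replicate 2 or 4 (0.38, 0.39 and 0.45, adjusted p of 0.0341, 0.0229 and 0.00491). Without background correction the differences from Dox250 on were 0.27, 0.32, 0.23 and 0.20, all of which passed.

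BARD1, the partner of BRCA1 in its ubiquitin ligase, read 9.94, 9.88, 9.91 and 9.95 in Ramos, 9.52, 9.36, 9.75 and 9.51 in Dox100, and 9.31, 9.38, 9.29 and 9.45 in Dox250. It read 9.41, 9.81, 9.89 and 9.76 in Dox500, 9.37, 9.51, 9.29 and 9.49 in Dox750, and 9.48, 9.30, 9.42 and 9.50 in Dox1000. Dox500 was the line whose arrays reached those of Ramos. BARD1 was lower in the other 4 lines, by -0.38 in Dox100, -0.56 in Dox250, -0.50 in Dox750 and -0.49 in Dox1000 (SE 0.09, adjusted p of at most 0.00194), and differed by -0.20 in Dox500 (adjusted p = 0.0899, and 0.0418 without Dox500 replicate 3 or 0.00712 with median scaling). It rose by 0.36 in Dox500 over Dox250 (adjusted p = 0.0124, and 0.0568 without Dox500 replicate 3). It fell by 0.31 in Dox750 against Dox500 (adjusted p = 0.0473), which did not pass without any of 7 of the 8 arrays compared (adjusted p of 0.0534 to 0.147). BRCA1 itself passed in none of the 5 comparisons with Ramos, at 0.04, 0.13, -0.04, -0.19 and -0.03, but in Dox750 it was lower with median scaling (-0.34, adjusted p = 0.0199) and with the mean of its probes (-0.22, adjusted p = 0.0138).

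PALB2, which bridges BRCA1 and BRCA2, was higher in the first 4 resistant lines and not in the last. It read 7.47, 7.46, 7.28 and 7.32 in Ramos, 7.75, 7.42, 7.92 and 7.73 in Dox100, and 7.88, 7.58, 7.77 and 7.64 in Dox250. Later lines read 7.63, 7.61, 7.84 and 7.56 in Dox500, 7.76, 7.72, 7.76 and 7.79 in Dox750, and 7.49, 7.48, 7.37 and 7.39 in Dox1000. Dox1000 overlapped with Ramos, as did Dox100 through its replicate 2. PALB2 differed by 0.32, 0.33, 0.27, 0.37 and 0.05 in order of dose (SE 0.09, adjusted p of 0.00647, 0.00481, 0.0178, 0.00169 and 0.681) and fell by 0.32 in Dox1000 against Dox750 (adjusted p = 0.0135). With median scaling it was at 0.17, 0.07 and 0.21 in Dox250, Dox500 and Dox750, and passed in none of these. In Dox500 PALB2 also did not pass without Ramos replicate 3 (adjusted p = 0.0578) or Dox500 replicate 3 (adjusted p = 0.0774). BRCA2 had no probe in the annotation used here, and BRIP1 was detected on 1 array.

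The RAD54 translocases, which help a broken end find and invade the matching strand, were lower. RAD54L read 10.13, 9.96, 9.77 and 10.07 in Ramos, 9.61, 9.34, 9.92 and 9.68 in Dox100, and 9.41, 9.36, 9.49 and 9.55 in Dox250. It read 9.75, 9.89, 9.75 and 9.68 in Dox500, 9.45, 9.59, 9.46 and 9.49 in Dox750, and 9.63, 9.71, 9.76 and 9.59 in Dox1000. Dox250, Dox750 and Dox1000 lay below all Ramos arrays. RAD54L was lower in Dox100, Dox250, Dox750 and Dox1000 by -0.35, -0.53, -0.49 and -0.31 (SE 0.10, adjusted p of at most 0.00948) and differed by -0.22 in Dox500 (adjusted p = 0.0737, and 0.0249 without Ramos replicate 3). It rose by 0.31 in Dox500 over Dox250 (adjusted p = 0.0343), which did not pass without Dox250 replicate 1, 2 or 3 or Dox500 replicate 2 or 3 (adjusted p of 0.0612 to 0.105). H2AX, BARD1 and RAD54L thus each passed as higher in Dox500 than in Dox250.

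RAD54B, a relative of RAD54L, had a dim probe that was nevertheless detected on all 24 arrays. It read 6.63, 6.95, 6.7 and 6.58 in Ramos, 6.11, 6.12, 5.59 and 6.23 in Dox100, and 6.09, 6.37, 6.52 and 6.11 in Dox250. The arrays read 6.21, 6.09, 5.72 and 5.80 in Dox500, 5.75, 6.13, 6.56 and 6.23 in Dox750, and 6.11, 5.80, 6.37 and 6.28 in Dox1000. All resistant arrays lay below all Ramos arrays. RAD54B was lower by -0.70, -0.44, -0.76, -0.55 and -0.58 in order of dose (SE 0.17, adjusted p of 0.0016, 0.0353, 0.000784, 0.00963 and 0.0063). Dox250 did not pass without Ramos replicate 2 or 3 or Dox250 replicate 1 or 4 (adjusted p of 0.0584 to 0.112), nor Dox750 without Dox750 replicate 1 (adjusted p = 0.0522). Without background correction the RAD54B differences were -0.27, -0.18, -0.29, -0.22 and -0.23, all of which passed. BLM, a helicase that dissolves joined recombination intermediates, was lower in Dox250 and Dox1000 by -0.19 and -0.22 (adjusted p of 0.0327 and 0.0123). RMI1, which works in a complex with BLM, was lower in Dox250, Dox500 and Dox1000 by -0.36, -0.30 and -0.36 (adjusted p of 0.0192, 0.0484 and 0.0157). None of these 5 BLM and RMI1 differences passed without Ramos replicate 3 (adjusted p of 0.113 and 0.0504 for BLM and 0.050008 to 0.127 for RMI1). RMI1 in Dox500 also did not pass without Ramos replicate 2 or 4 or Dox500 replicate 1, 2 or 3 (adjusted p of 0.0554 to 0.133). BLM in Dox250 also did not pass without Ramos replicate 2 or Dox250 replicate 1 or 3 (adjusted p of 0.0669 to 0.0884).

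**Figure D3:**
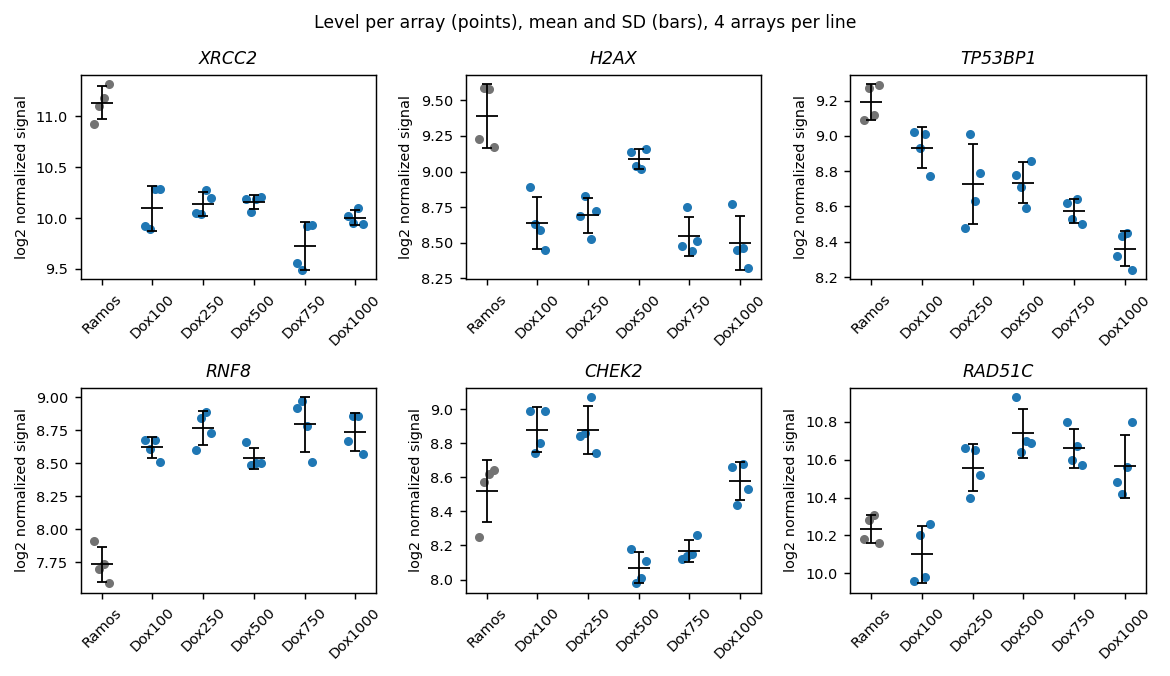
Log2 normalized signal per array (points) with the mean and SD (bars) of 4 arrays per line, for 6 members, with Ramos in grey and the resistant lines in blue in order of dose. Each panel has its own vertical range, which does not start at 0. XRCC2, H2AX and TP53BP1 lie below Ramos in every line, RNF8 lies above it, CHEK2 changes side between Dox250 and Dox500, and RAD51C separates from Ramos from Dox250 on.

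Of the end joining genes, POLQ was lower in all 5 lines and the Ku subunits differed from each other. POLQ, the polymerase of end joining through short homologies, read 9.05, 8.91, 9.0 and 9.07 in Ramos, 8.55, 8.61, 8.56 and 8.47 in Dox100, and 8.40, 8.71, 8.55 and 8.58 in Dox250. It read 8.51, 8.58, 8.73 and 8.74 in Dox500, 8.54, 8.29, 8.57 and 8.69 in Dox750, and 8.42, 8.64, 8.93 and 8.64 in Dox1000. Only replicate 3 of Dox1000 reached the Ramos arrays. POLQ was lower by -0.46, -0.45, -0.37, -0.49 and -0.35 in order of dose (SE 0.10, adjusted p of 0.000557, 0.000677, 0.00391, 0.00025 and 0.00454), and it passed in each line under every alternative run. No comparison among the resistant lines passed for POLQ.

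XRCC5, the larger Ku subunit, was higher in Dox250, Dox500 and Dox750 by 0.27, 0.30 and 0.36 (adjusted p of 0.014, 0.00649 and 0.00143), and fell by 0.39 in Dox1000 against Dox750 (adjusted p = 0.00222). In Dox1000 it differed from Ramos by -0.03. With median scaling XRCC5 was at 0.15 and 0.17 in Dox250 and Dox500 and did not pass (adjusted p of 0.151 and 0.117). XRCC6, the smaller Ku subunit, was on its brightest probe lower in 1 line, Dox1000, by -0.35 (adjusted p = 0.000135). PRKDC, the kinase that Ku recruits, was lower in Dox100 and Dox1000 by -0.36 and -0.33 on its brightest probe (SE 0.14, adjusted p of 0.0358 and 0.0472). Neither PRKDC difference passed without Ramos replicate 1 (adjusted p of 0.151 and 0.196). The Dox100 difference also did not pass without Ramos replicate 4 or Dox100 replicate 1, 2 or 4 (adjusted p of 0.0603 to 0.111). The Dox1000 difference also did not pass without Ramos replicate 2 or 4 or Dox1000 replicate 1, 2 or 4 (adjusted p of 0.0513 to 0.138). FANCI, which is monoubiquitinated in the Fanconi anaemia pathway, was lower in Dox750 and Dox1000 by -0.31 each (adjusted p of 0.0115 and 0.0108, and 0.0534 and 0.0502 without Ramos replicate 4). XRCC4 and NHEJ1 were detected on 0 arrays. LIG4 was detected on 4, at most 2 of them in 1 line, where testing needed 3 arrays of some line. FANCD2 and FANCA had no probe in the annotation used here.

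For several genes the probes of 1 gene gave different readings. The other kept probe of XRCC6 was lower in all 5 lines, by -0.47, -0.46, -0.52, -0.56 and -0.78 (SE 0.09, adjusted p of at most 0.00017), where the brightest probe differed by 0.03, -0.09, 0.01, -0.11 and -0.35. With the mean of both probes XRCC6 passed as lower in Dox100, Dox250, Dox500 and Dox750 at -0.22, -0.27, -0.25 and -0.34. Of the 3 other kept probes of PRKDC, the 1 that was detected on all 24 arrays was lower in all 5 lines, by -0.53, -0.38, -0.57, -0.82 and -0.69 (SE 0.09, adjusted p of at most 0.0014). The remaining PRKDC probes were detected on 1, 3, 0, 0 and 0 and on 2, 4, 1, 4 and 0 arrays of the resistant lines in order of dose, and are not read. The end joining genes XRCC6 and PRKDC were thus each lower in all 5 lines on 1 dimmer probe detected on all arrays, and in 1 and 2 lines on the brightest. The other kept probe of MRE11 was detected on 1 of 4 Dox1000 arrays, against 4 of 4 in Ramos, and is not read. ATM, BRCA1, NBN and RMI1 also had a second probe with another sign in at least 1 line. Which transcripts each probe reads was not tested.

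**Figure D4:**
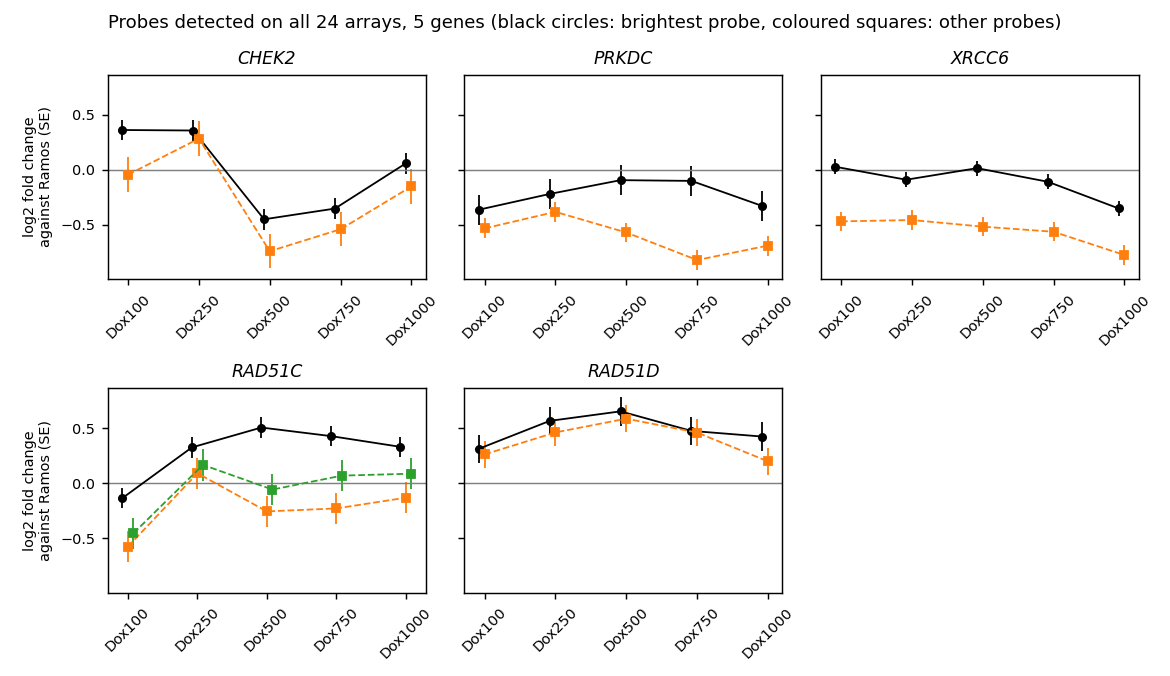
Log2 fold change against Ramos ± SE for every probe detected on all 24 arrays, of 5 genes in the 5 resistant lines, with the brightest probe as black circles and the others as coloured squares. Both probes of RAD51D lie above 0, whereas the probes of RAD51C and of XRCC6 lie apart from each other.

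Few members changed between successive resistant lines. In Dox250 against Dox100 the sole member that passed was RAD51C, 1 of 28 and higher, where 13.5% of all genes passed (5.21% higher and 8.25% lower). In Dox500 against Dox250, 5 passed (H2AX, BARD1 and RAD54L higher, CHEK1 and CHEK2 lower), where 14.7% of all genes did (7.86% higher and 6.81% lower). In Dox750 against Dox500, 3 passed, all lower (H2AX, XRCC2 and BARD1), where 8.0% did (3.98% higher and 4.03% lower). These counts were near the share over all genes or below it. In Dox1000 against Dox750, 6 passed, with ATM and CHEK2 higher and RIF1, XRCC5, PALB2 and XRCC6 lower, where 23.7% of all genes did (12.1% higher and 11.7% lower). Over the whole range, Dox1000 against Dox100, 9 passed where 37.8% did (17.3% higher and 20.5% lower), with RAD51C, MRE11 and ATM higher and TP53BP1, XRCC3, XRCC6, RIF1, CHEK2 and PALB2 lower. With median scaling the members' splits of higher and lower were 1 and 3 in Dox250 against Dox100 and 1 and 4 in Dox1000 against Dox750. In Dox1000 against Dox100 the split was 1 and 8. The splits of all genes in these comparisons were 245 and 1442, 1021 and 985, and 1067 and 2611 with that scaling. The MRE11 difference, 0.40 (adjusted p = 0.0276), was 0.05 with the mean of its probes, of which 1 was detected on 1 Dox1000 array, and did not pass without Dox100 replicate 1 or 3 or Dox1000 replicate 1, 2 or 3 (adjusted p of 0.0735 to 0.0968). PALB2, lower in Dox1000 than in Dox100 by -0.27 (adjusted p = 0.0238), did not pass without Dox100 replicate 1 or 3 or Dox1000 replicate 3 or 4 (adjusted p of 0.0548 to 0.105). In turn the ATM difference in Dox1000 against Dox750, 0.25 (adjusted p = 0.0495), did not pass without 6 of the 8 arrays compared (adjusted p of 0.083 to 0.144).

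RNF8 lay among genes most of which were higher in each line, and XRCC2 among genes that were mostly lower from Dox500 on. Chromosome and gene order were taken from RefSeq on GRCh38.p14, and the 5 measured genes on each side were read. Beside RNF8 on chromosome 6, 9, 7, 7, 7 and 8 of 10 neighbours were higher than in Ramos in order of dose and none was lower, where 24.1%, 23.9%, 25.2%, 26.8% and 27.6% of all genes were higher. The neighbours' medians were 0.53, 0.33, 0.34, 0.39 and 0.51, while the 513 measured genes of chromosome 6 had medians of 0.00 to 0.06. CMTR1, the next measured gene, which encodes an mRNA cap methyltransferase, was higher by 0.61, 0.59, 0.54, 0.72 and 0.72, and FGD2, a guanine nucleotide exchange factor gene, by 1.93, 1.59, 1.10, 1.82 and 1.98.

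Beside XRCC2 on chromosome 7, 4, 3, 10, 9 and 8 of 10 neighbours were lower in order of dose, where 22.2%, 25.5%, 23.2%, 25.9% and 29.7% of all genes were. Their medians were -0.22, -0.15, -0.62, -0.53 and -0.65, while the 471 measured genes of the chromosome had medians of -0.03, -0.20, -0.23, -0.23 and -0.25. In Dox500 against Dox250, 7 of 10 neighbours fell (median -0.48), where XRCC2 differed by 0.02 and was already low in Dox100. In Dox100 itself, 4 neighbours were lower and 1 was higher. The neighbour PAXIP1-DT was lower in all 5 lines, by -1.02, -0.81, -0.82, -1.22 and -0.89, and KMT2C was at -0.73 in Dox100. PAXIP1, whose product binds TP53BP1, and KMT2C, a histone methyltransferase gene, are among these neighbours, at -0.88 and -1.10 in Dox1000. XRCC3 on chromosome 14 had 8 of 10 neighbours lower in Dox1000 (median -0.42), while the 313 genes of that chromosome had a median of 0.01. H2AX had 2 neighbours lower and 2 higher in Dox1000 (median -0.11), TP53BP1 3 and 3 (median -0.11), and POLQ 3 and 4 (median 0.03). The part of chromosomal position in these differences was not tested.

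**Figure D5:**
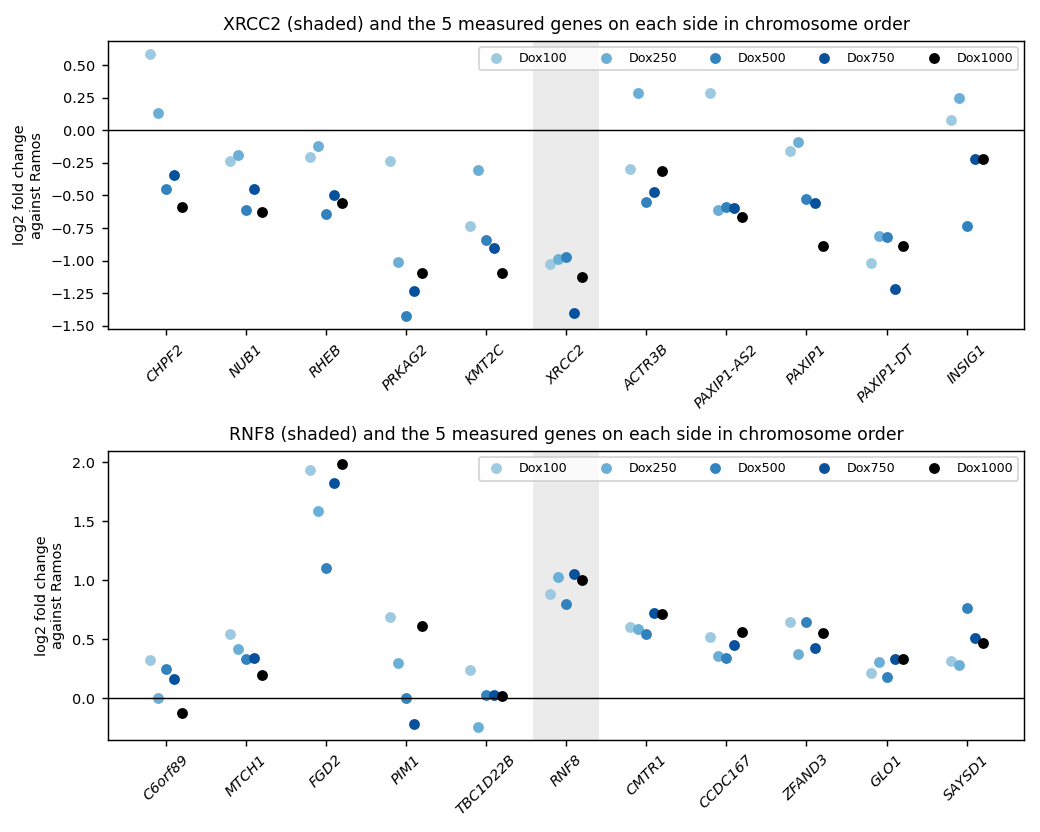
Log2 fold change against Ramos of XRCC2 (upper panel) and RNF8 (lower panel), both shaded, and of the 5 measured genes on each side in chromosome order, with 1 point for each resistant line from Dox100 (lightest) to Dox1000 (black). From Dox500 on nearly all points around XRCC2 lie below 0, and nearly all around RNF8 lie above 0 in all lines.

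Genes of the same pathways outside the list were read for context, from lists chosen with earlier results of these data known. Of 17 measured of 20 further damage signalling genes, 1 was higher and 5 were lower in Dox1000 (median -0.11). The largest changes were ABRAXAS1, a scaffold of the UIMC1 complex, at -0.94 ± 0.12, PAXIP1 at -0.88 ± 0.11, and ATRIP, the partner of ATR, at -0.39 ± 0.09 (SE, adjusted p of 1e-06, 9.89e-07 and 0.00134). Of 19 measured of 21 further recombination genes, 4 were higher and 9 lower (median -0.21), led by FIGNL1 at -1.03 ± 0.14, and the junction resolving nuclease genes GEN1 at -0.75 ± 0.11 and MUS81 at -0.68 ± 0.09. Over all genes 27.6% were higher and 29.7% lower in Dox1000. The damage signalling list split evenly, 2 higher and 2 lower, in Dox100 and in Dox500. Of 11 measured of 14 further end joining genes, 3 were higher and 4 lower (median -0.02). The shieldin subunits, which act with TP53BP1, differed in direction, SHLD1 at 0.60 ± 0.09 and SHLD2 at -0.60 ± 0.14, and the polymerase gene POLM was at -0.55 ± 0.10. Of 11 measured of 13 further Fanconi anaemia pathway genes, 2 were higher and 1 lower (median 0.01), with FANCL at 0.45 ± 0.13, FAAP100 at -0.45 ± 0.09 and UBE2T at 0.22 ± 0.08.

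Replication and mitosis genes were read beside the same shares over all genes. Of 20 measured replication genes of 21, 3 were higher and 9 lower in Dox1000 (median -0.20), led by the replicative helicase subunits MCM5, MCM7 and MCM4 at -0.89, -0.86 and -0.70 (SE 0.07 to 0.08). Their summed signal was 61719 to 66579 in Dox1000, against 75682 to 81540 in Ramos. Of 15 mitosis genes, 5 were higher and 2 lower in Dox1000 (median 0.08), with the kinase genes CDK1 and AURKA at 0.74 and 0.61 and the spindle motor gene KIF11 at -0.47. The summed mitosis signal was 29166 to 30458 in Dox1000, against 24868 to 26534 in Ramos. The part of proliferation in the members' differences was not tested.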

How the data were processed

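RNA from 24 cultures, 4 of each of 6 lines, was measured on Illumina bead arrays. The authors deposited intensity values, bead signals for each probe and array that per the file headers had no background subtraction or normalization. The p-values beside them are the authors' detection p-values per probe. The authors' deposited log2 values equal log2 of the quantile-normalized signals (highest absolute difference 5e-09) and served as an alternative. Per the submitters' processing notes, lumi is among the tools, without a version or role; the genome build is not given in the sources used here. Probe names came from the platform annotation, updated through Entrez identifiers for 30074 probes; 30113 probes had 1 symbol, 8 several and 17202 none.

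From the intensities, the normexp background correction of limma's nec function (offset 16) took its negative control parameters from the detection p-values, followed by quantile normalization and log2. Of 47323 probes, 15765 were kept because 3 or all 4 arrays of some line detected them at p under 0.01. Each gene took the values of the brightest of its kept probes. limma 3.58.1 in R 4.3.3 fitted a mean per line over the 24 arrays (18 residual degrees of freedom) and gave 10 comparisons, each resistant line against Ramos, each against the line before it and Dox1000 against Dox100. Adjustment was Benjamini-Hochberg over all kept probes.

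Members and context lists were chosen with earlier results of these data known. Values per array are given for the 14 members with the largest passing change against Ramos and the 2 largest per comparison among resistant lines. Promoter sequences and gene order are from RefSeq on GRCh38.p14. Alternatives were median scaling, no background correction, the deposited values, no detection filter, detection on all 24 arrays, the mean of kept probes, an adjusted p under 0.01, an intensity trend, the 8 arrays compared alone, blocking on the replicate number, and leaving out 1 array at a time; requiring every kept probe of a member to have the same sign was added after seeing the data.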

Additional observations from a re-analysis of the deposited data

Results flagged for a closer look

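Of 90 sets of 4 arrays (15 members in 6 lines), 6 had an array far from the other 3 by Dixon's criterion, which chance flags in about 1 of 20 sets. XRCC2 read 10.06 in Dox500 replicate 2, where the other Dox500 arrays read 10.19 to 10.21. RNF8 read 8.66 in Dox500 replicate 1, where the others read 8.49 to 8.5. XRCC3 was apart in Dox100 replicate 2 at 9.38 (others 9.61 to 9.64) and in Dox250 replicate 3 at 9.20 (others 9.35 to 9.36). CHEK2 read 8.25 in Ramos replicate 1, where the other Ramos arrays read 8.57 to 8.64. RIF1 read 6.90 in Dox250 replicate 3, where the others read 7.11 to 7.14.

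On its brightest probe, CHEK2 was the member whose difference from Ramos changed direction between lines, higher in Dox100 and Dox250 and lower in Dox500 and Dox750. The difference between Dox500 and Dox250 on that probe was tested directly in limma and was -0.81 (adjusted p = 2.74e-06), with all 4 Dox500 arrays below all 4 Dox250 arrays. The other kept probe of CHEK2 passed as lower in Dox500 and Dox750 but did not pass in Dox100 or Dox250.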

How the results depend on the processing

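The counts of members that passed against Ramos were within 1.5 times their value under most alternatives. With an adjusted p under 0.01 they were 11 in Dox250 and 10 in Dox500, and with the 8 arrays compared alone 9 in Dox100. Among resistant lines, median scaling gave 4 members in Dox250 against Dox100 and 1 in Dox750 against Dox500, no detection filter gave 3 in Dox500 against Dox250 and 1 in Dox750 against Dox500, and the 8 arrays alone gave 1 in Dox750 against Dox500. An adjusted p under 0.01 gave 2 in Dox500 against Dox250, 1 in Dox750 against Dox500, 3 in Dox1000 against Dox750 and 5 in Dox1000 against Dox100. With 1 array left out, the counts ran from 1 (without Dox100 replicate 1) to 4 (without Dox100 replicate 2) in Dox250 against Dox100, from 3 (without Dox250 replicate 3 or Dox500 replicate 3) to 5 in Dox500 against Dox250, and from 1 (without Dox500 replicate 4 or Dox750 replicate 1 or 2) to 3 in Dox750 against Dox500. Against Ramos they ran from 11 to 14, 14 to 19, 13 to 16, 16 to 20 and 15 to 18 in order of dose. For Dox1000 they ran from 5 to 9 against Dox750 and 6 to 8 against Dox100. Of 108 passing differences of members, 89 passed with median scaling, 107 without background correction, 86 without the detection filter, 96 with the mean of kept probes and 88 with the 8 arrays alone. No difference that passed changed sign. With the mean of kept probes, XRCC6 passed as lower at -0.22 in Dox100 and -0.25 in Dox500, and PRKDC, whose mean takes in a probe detected on 0 Dox500 arrays, at -0.30 in Dox500 against Dox250, where their brightest probes had the opposite sign and did not pass. The causes were not tested.

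Over all kept probes together, the arrays showed no pairing by replicate number, and what the numbers mark is not stated. Pairing within single genes was not tested. With the replicate number as a block, 13, 17, 16, 18 and 19 members passed against Ramos in order of dose. Under the block, 1, 4, 2 and 6 passed at the successive steps and 9 in Dox1000 against Dox100. Of 60 same-numbered pairs of arrays, 6 had deviations correlated over 0.1 (r from -0.24 to 0.18), and 7 of 24 arrays correlated best with one of their own number. When every kept probe of a member had to have the same sign, an alternative chosen after seeing the data, 13, 17, 15, 17 and 18 members passed against Ramos. That rule takes in the probes of XRCC2, MRE11 and PRKDC that are not read above. No share over all genes was computed under it.

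The arrays carry no read depth; 11 members, including ATR, RAD50, BRCA2 and LIG4, gave no tested value, and the number of arrays and the division of 1 culture per line limit what the p-values cover.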
